A study of Bos taurus with 6 samples.

Results

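The genes described here code for the nuclear-encoded part of oxidative phosphorylation, and their log ratios come from the first trial of a bovine cDNA microarray. Members were chosen by gene symbol in the platform annotation. They are the NDUFA, NDUFB, NDUFC, NDUFS and NDUFV genes of complex I, SDHA to SDHD of complex II, the UQCR genes and CYC1 of complex III, the COX4 to COX8 genes of complex IV and the ATP5 genes of ATP synthase, or complex V. The rule uses no measured value, but it was chosen with earlier results of these data known. The rule found 71 genes on 92 features (spotted cDNAs), out of 8397 named genes on 12630 features with a single gene symbol and 19200 features in all. Complex I gave 5 catalytic core genes, 25 accessory genes and 3 assembly factors, complex II 3 genes, complex III 7, complex IV 10 and complex V 18. SDHD had no feature among them. Values were tied to genes by feature number through the platform annotation, and whether each value belongs to the gene named could not be checked from the ratios.

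On each array both colours held total RNA of the same kind of bovine tissue, either adrenal gland against adrenal gland or lymph tissue against lymph tissue. There are 3 listed arrays per tissue, but the column of the second adrenal array and that of the third lymph array do not differ in any of the 19200 rows. That column was used once, without a tissue, and is called the shared array. Each tissue thus keeps a pair of arrays, adrenal 1 and 3 and lymph 1 and 2, which with the shared array makes 5 distinct ones. The age, sex and breed of the animals, the kind of lymph tissue, and whether the arrays of a tissue came from separate animals are not given in the sources used here, so p-values reflect only how these arrays vary, and that variation may be technical.

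Oxidative phosphorylation takes place in the inner mitochondrial membrane. Complexes I and II pass electrons from NADH and succinate to ubiquinone, complex III hands them to cytochrome c, and complex IV reduces oxygen. Complexes I, III and IV pump protons, and ATP synthase uses the returning protons to make ATP. Cortical cells of the adrenal gland are rich in mitochondria, where part of steroid synthesis takes place, whereas resting lymphocytes are small cells with few of them. In a self-self hybridisation both channels of an array hold the same tissue, so the ratio does not compare levels between tissues. Whether the level of a gene affects its ratio in another way was not tested. A departure from 0 is therefore no difference in expression between tissues, and the arrays give no level of any gene. For the same reason the tissue labels could not be checked against cell type markers.

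All values below are log ratios of the 2 channels in the units deposited, after each array was centred on its median and the features of a gene were averaged. The base of the logarithm, the dye in the numerator and the dye orientation of each array are not given in the sources used here. Averages across arrays therefore assume that the arrays run the same way, and no value says which channel was brighter. The SD of all features was 0.147 for adrenal 1, 0.181 for adrenal 3, 0.194 for lymph 1 and 0.154 for lymph 2, but 0.0926 for the shared array. Where a gene's 5 values are listed without array names, the order is adrenal 1, adrenal 3, lymph 1, lymph 2, shared. Genes with a value on all 4 tissue arrays were tested, which 8318 genes did, among them 69 of the 71 members. ATP5MF and ATP5PB had empty cells and were not tested.

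**Figure D1:**
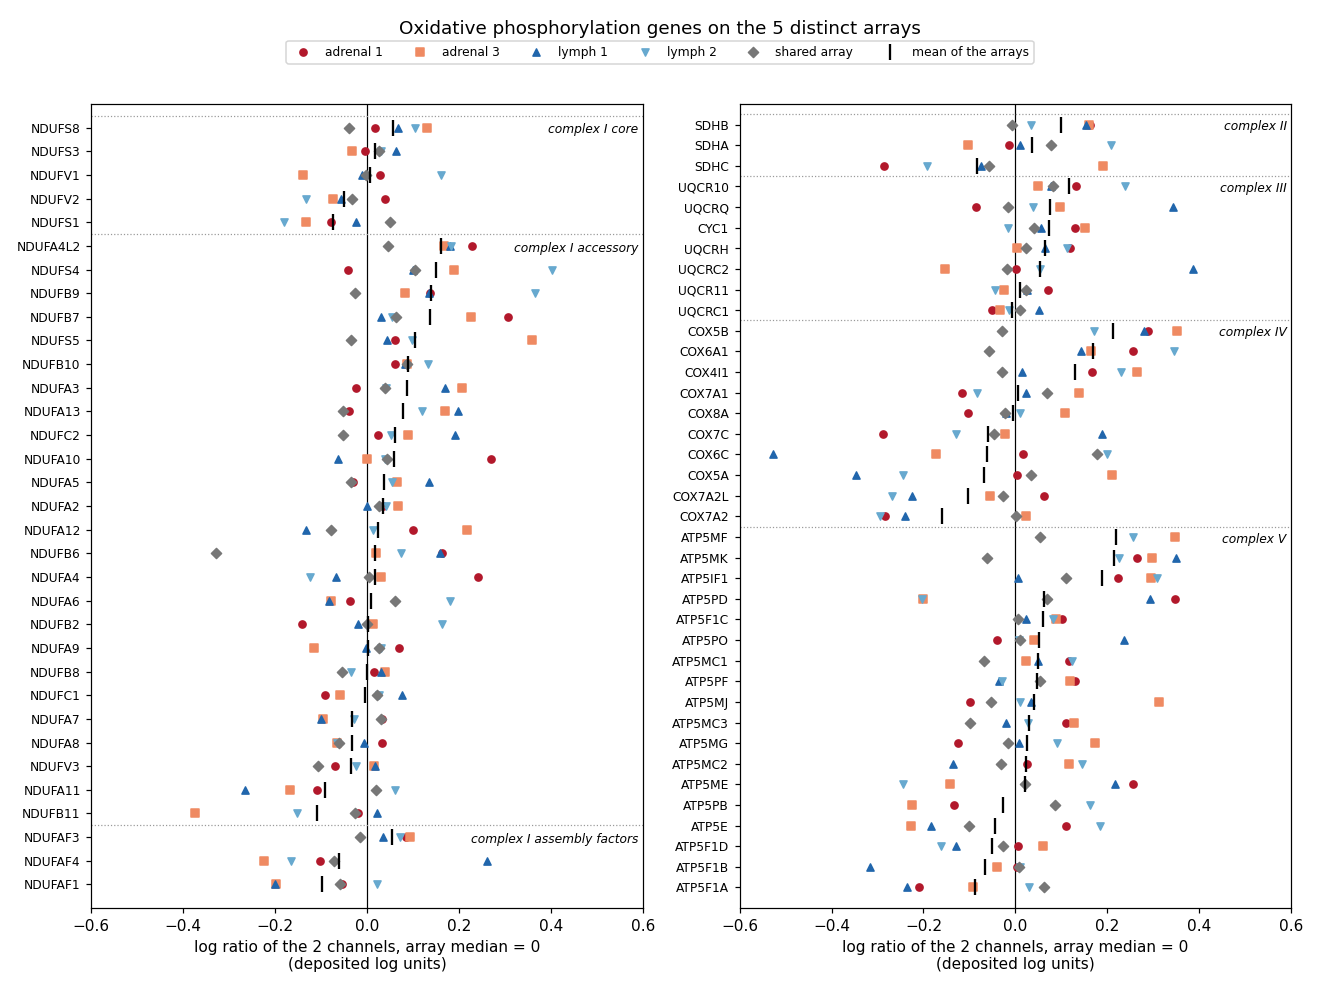
Log ratio (horizontal axis, deposited log units, array median at 0) of each of the 71 member genes on the 5 distinct arrays, grouped by complex and ordered by mean; coloured points are arrays and the black bar is the mean of the arrays with a value. Most points lie within 0.3 of 0, and COX6C on lymph 1 lies farthest from it, at -0.53.

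No member differed from 0, or between the tissues, with limma at a Benjamini-Hochberg adjusted p under 0.05. Both tissues were tested against 0, then against each other, and the mean of the 5 arrays was tested against 0. The share called among all genes was 0% in each of these 4 tests. The smallest adjusted p of a member was 0.566 in adrenal, 0.593 in lymph, 0.934 for the difference and 0.299 for the average. Of the 352 values of the 71 members, the untested ATP5MF and ATP5PB included, 18 (5.11%) lay beyond 0.3 in either direction. For all genes the share was 4.19%, over the values of tested genes only.

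More members lay above 0 than below it on each of the 4 tissue arrays. The median of the 69 tested members was 0.025 and 0.040 for the adrenal pair, 0.024 and 0.038 for the lymph pair, and -0.0027 for the shared array. The median of all genes lay between 0.0020 and 0.0064 on the same arrays. Of the 69 members, 43 lay above 0 on adrenal 1, against 51.8% of all genes, and 43 on adrenal 3, against 50.8%. The lymph arrays had 42, against 52.1%, and 47, against 51.1%. The shared array, whose spread over all features was also the smallest, had 33 members above 0 against 51.3% of all genes. By tissue mean, 43 of 69 members (62.3%) lay above 0 in adrenal, against 51.3% of all genes, and 44 (63.8%) in lymph, against 52.2%. The members' share thus lay above the background in both tissues but not on the shared array.

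In adrenal against adrenal, 8 members (11.6%) had an unadjusted limma p under 0.05, against 7.36% of all genes. All 8 lay above 0, where the background was 5.48% above and 1.88% below. With the shared array placed in adrenal, 4 of 69 members had such a p, against 463 of 8343 genes. In lymph against lymph there were 9 members (13.0%) against 8.05%. Of these, 6 lay above 0 and 3 below, where the background was 5.51% and 2.55%. With the shared array placed in lymph there were 5 of 70 members, against 441 of 8356 genes. In the average of the 5 arrays there were 13 members (18.8%) against 9.81%, of which 12 lay above 0 and 1 below, against 7.08% and 2.73% of all genes. The 12 above were 5 complex I accessory genes, 1 gene of complex II, 1 of complex III, 3 of complex IV and 2 of complex V, and the 1 below was COX7A2 of complex IV. The count fell to 6 of 69 without adrenal 1, against 568 of 8320 genes. Without lymph 2 it was 8 of 69, against 663 of 8318. For lymph minus adrenal there were 2 members (2.90%) against 4.86%, with 0 above 0 and 2 below where the background was 2.5% and 2.36%. With the shared array placed in lymph that count was 4 of 70 members, against 427 of 8356 genes. With the shared array in adrenal it was 3 of 69, against 441 of 8343.

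The core genes of complex I code for the conserved subunits that its catalysis needs, most of which carry redox centres. NDUFS1, the largest iron-sulphur subunit, stood at -0.079 and -0.13 in adrenal, -0.024 and -0.18 in lymph, and 0.050 on the shared array. It was the single member below 0 on all 4 tissue arrays. NDUFV2, a further iron-sulphur subunit of the NADH-oxidising arm, stood at 0.039, -0.075, -0.057, -0.13 and -0.033. NDUFS8, an iron-sulphur subunit close to the ubiquinone site, stood at 0.018, 0.13, 0.067, 0.10 and -0.039, above 0 on the tissue arrays. NDUFS3 averaged 0.016 ± 0.037 (SD, n = 5 arrays), and NDUFV1, which binds NADH, lay between -0.14 and 0.16. The median of the 5 core genes in the average of the arrays was 0.0069, against 0.0048 for all genes. It had no stable sign, being -0.031 without lymph 2, 0.028 without adrenal 3, 0.0019 without adrenal 1 and 0.0043 without lymph 1.

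The accessory subunits of complex I surround the core and support its assembly and stability. Of the 25 genes, 18 lay above 0 in the average of the 5 arrays, where 53.2% of all genes did, with a median of 0.023 (0.048 without the shared array). None was called by limma, and 5 had an unadjusted p under 0.05, which 9.81% of all genes had. NDUFA4L2, a paralogue of NDUFA4 known for its induction in hypoxia, is counted here by its symbol alone. It stood at 0.23 and 0.17 on the adrenal arrays, 0.18 and 0.18 on the lymph arrays and 0.045 on the shared array. It was above 0 on every array, and its average of 0.16 ± 0.04 (limma SE, n = 5; adjusted p = 0.299) had the smallest p of all members in that test. NDUFB10, a subunit of the membrane arm, stood at 0.060, 0.085, 0.081, 0.13 and 0.086, the narrowest range among the members above 0 on all 5 arrays. NDUFB7, of the same arm, stood at 0.31 and 0.23 in adrenal, 0.029 and 0.055 in lymph and 0.063 on the shared array, so that both adrenal values lay above both lymph values.

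NDUFS4, a subunit whose loss is known to cause Leigh syndrome, had the highest value of any member. It stood at -0.042, 0.19, 0.099, 0.40 and 0.10, with an average of 0.15 ± 0.06 (limma SE, n = 5; adjusted p = 0.472), or 0.087 without lymph 2. The lowest accessory genes were NDUFB11 and NDUFA11, both of the membrane arm. NDUFB11 stood at -0.020, -0.38, 0.022, -0.15 and -0.026, with its lowest value on adrenal 3. NDUFA11 stood at -0.11, -0.17, -0.27, 0.059 and 0.019, below 0 on 3 of the tissue arrays. Neither was called (limma adjusted p = 0.579 and 0.603). NDUFB9, another subunit of that arm, stood at 0.14, 0.081, 0.14, 0.36 and -0.027, and NDUFS5 at 0.060, 0.36, 0.042, 0.098 and -0.036. Each had 1 tissue array well above the other 3. NDUFB6 stood at 0.16, 0.019, 0.16, 0.073 and -0.33, the lowest member value on the shared array. The least variable accessory gene was NDUFA2, between -0.00092 and 0.067 (SD 0.0247, n = 5). NDUFA4, now assigned to complex IV although its symbol places it here, stood at 0.24 and 0.031 in adrenal and -0.069 and -0.12 in lymph.

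The 3 assembly factors help build complex I and are not part of the finished enzyme. NDUFAF1 stood at -0.055, -0.20, -0.20, 0.022 and -0.058. NDUFAF3 stood at 0.085, 0.093, 0.033, 0.071 and -0.016, and NDUFAF4, its partner in assembly, at -0.10, -0.22, 0.26, -0.16 and -0.072. NDUFAF4 thus lay on both sides of 0 in lymph, and the partners lay on opposite sides of 0 on both adrenal arrays and on lymph 2. The median of the 3 in the average was -0.061, and -0.020 without adrenal 3 or -0.035 without lymph 2.

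Complex II couples the citric acid cycle to the respiratory chain. SDHB, its iron-sulphur subunit, stood at 0.16 and 0.16 in adrenal, 0.15 and 0.033 in lymph and -0.0082 on the shared array. SDHA, the flavoprotein that oxidises succinate, stood at -0.014, -0.10, 0.010, 0.21 and 0.076, with both lymph values above both adrenal values. SDHC, a membrane anchor, stood at -0.28, 0.19, -0.076, -0.19 and -0.058. Its adrenal values lay on opposite sides of 0, so the 3 subunits shared no pattern. Their median in the average was 0.035, but -0.0078 without lymph 2 and 0.070 without adrenal 3.

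Complex III was the group with the largest share of its members above 0 in the average, 6 of 7, with a median of 0.064. That median was 0.0083 without lymph 1. UQCR10, a small subunit of the complex, stood at 0.13, 0.048, 0.078, 0.24 and 0.082, above 0 on all 5 arrays (average 0.12 ± 0.04, limma SE; adjusted p = 0.428). UQCRH, the hinge protein that contacts cytochrome c1, was also above 0 on every array, from 0.0023 to 0.12. UQCRQ, another small subunit, stood at -0.085, 0.097, 0.34, 0.038 and -0.017. UQCRC1 and UQCRC2 are the core proteins on the matrix side. UQCRC2 stood at 0.00014 and -0.15 in adrenal and 0.39 and 0.053 in lymph, and its average of 0.053 became -0.030 without lymph 1. UQCRC1 lay between -0.052 and 0.051, and UQCR11 between -0.045 and 0.070.

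Complex IV had the largest spread between arrays of the 7 groups. The median SD of its genes over the 5 arrays was 0.150, against 0.112 for all members and 0.103 for all genes. Its 10 genes rest on 11 features, against 71 members on 92 features and 8397 named genes on 12630. Whether the number of features averaged per gene plays a part in this spread was not tested. COX5B, a zinc-binding subunit on the matrix side, stood at 0.29 and 0.35 in adrenal, 0.28 and 0.17 in lymph and -0.029 on the shared array. Its adrenal mean of 0.32 ± 0.04 (SD, n = 2) had the smallest unadjusted p of a member in that test (limma adjusted p = 0.566). COX6A1, the isoform found outside heart and skeletal muscle, stood at 0.26, 0.16, 0.14, 0.34 and -0.058. COX4I1, the common isoform of an early-assembled subunit, stood at 0.17, 0.26, 0.014, 0.23 and -0.029. These 3 genes lay above 0 on the 4 tissue arrays and below it on the shared array.

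Of the other complex IV genes, COX5A, COX7A2 and COX7A2L lay below 0 on both lymph arrays. COX5A stood at 0.0032 and 0.21 in adrenal and -0.35 and -0.25 in lymph, with 0.034 on the shared array. COX7A2, the common isoform of its subunit, stood at -0.28, 0.022, -0.24, -0.30 and 0.00071, the lowest average of any tested member at -0.16 ± 0.06 (limma SE, n = 5; adjusted p = 0.435). COX7A2L, which links complexes III and IV in supercomplexes, stood at 0.063, -0.055, -0.22, -0.27 and -0.027. COX6C stood at 0.016, -0.17, -0.53, 0.20 and 0.18, with its lowest and its highest value on the 2 lymph arrays. Its average of -0.062 became 0.055 without lymph 1. COX7C went the other way by tissue mean, at -0.29 and -0.022 in adrenal, 0.19 and -0.13 in lymph and -0.047 on the shared array.

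COX7A1 and COX7A2 were the single isoform set of complex IV with more than 1 gene on the array, beside their relative COX7A2L. COX7A1, the heart and skeletal muscle isoform, stood at -0.12, 0.14, 0.024, -0.083 and 0.068, on both sides of 0 in each tissue. Its average of 0.0061 became -0.027 without adrenal 3 and -0.0095 without the shared array. COX8A averaged -0.0059 ± 0.076 (SD, n = 5). COX4I2, COX6A2, COX6B1, COX6B2 and COX8B had no feature among the members, so their pairs were not compared.

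In ATP synthase, 12 of 16 tested genes lay above 0 in the average, with a median of 0.035, or 0.017 without adrenal 3. ATP5MK, a small membrane subunit involved in pairing of the enzyme, stood at 0.26, 0.30, 0.35 and 0.23 on the 4 tissue arrays and -0.063 on the shared array. Its adrenal mean was 0.28 ± 0.02 (SD, n = 2; limma adjusted p = 0.566) and its lymph mean 0.29 ± 0.09 (SD, n = 2; limma adjusted p = 0.593). ATP5IF1, the inhibitor that stops the enzyme from hydrolysing ATP, stood at 0.22, 0.29, 0.0050, 0.31 and 0.11, above 0 on every array. ATP5F1A and ATP5F1B, the alpha and catalytic beta subunits of the head, had the lowest averages. ATP5F1A stood at -0.21, -0.092, -0.23, 0.030 and 0.062, and ATP5F1B at 0.0039, -0.039, -0.32, 0.0098 and 0.0087, away from 0 on lymph 1 alone.

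ATP5PO and ATP5PF belong to the stalk that holds the head in place. ATP5PO stood at -0.041, 0.040, 0.24, 0.0074 and 0.011, and ATP5PF at 0.13, 0.12, -0.036, -0.029 and 0.053, so that both lymph values of ATP5PF lay below both adrenal values. ATP5F1D, the delta subunit of the central stalk, also lay lower in lymph, at -0.13 and -0.16, than in adrenal, at 0.0051 and 0.059. Neither ATP5PF nor ATP5F1D passed the test of lymph minus adrenal.

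The membrane ring of ATP synthase is made of c subunits, which 3 genes encode as the same mature protein. ATP5MC1 stood at 0.12, 0.022, 0.049, 0.12 and -0.068, ATP5MC2 at 0.025, 0.12, -0.14, 0.14 and -0.032, and ATP5MC3 at 0.11, 0.13, -0.020, 0.028 and -0.098. Their averages were 0.048, 0.024 and 0.030, with limma SEs of 0.042, 0.049 and 0.045. With each array left out, the average ranged from 0.030 (without lymph 2) to 0.078 (without the shared array) for ATP5MC1 and from 0.0051 (without adrenal 3) to 0.062 (without the shared array) for ATP5MC3. That of ATP5MC2 ranged from -0.0067 (without lymph 2) to 0.063 (without lymph 1). Of the untested genes, ATP5MF stood at 0.35 on adrenal 3, 0.26 on lymph 2 and 0.053 on the shared array. ATP5PB, a peripheral stalk subunit, stood at -0.13 and -0.23 in adrenal, 0.16 on lymph 2 and 0.087 on the shared array. ATP5ME and ATP5PD, chosen after their values were seen, stood at 0.25, -0.14, 0.22, -0.24 and 0.35, -0.20, 0.29, -0.20 on the 4 tissue arrays, high on adrenal 1 and lymph 1 and low on adrenal 3 and lymph 2.

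**Figure D2:**
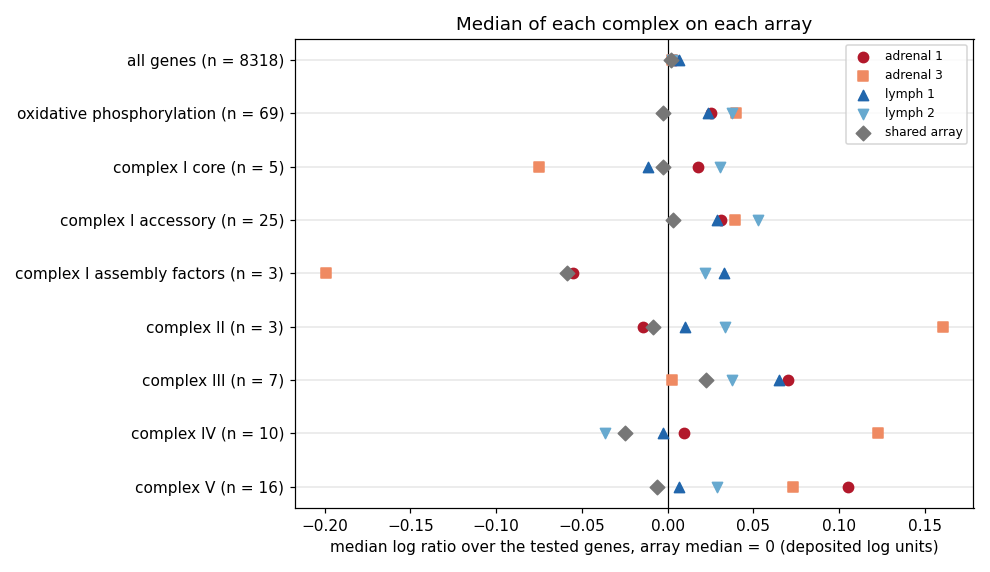
Median log ratio (horizontal axis, deposited log units) of the tested genes of each complex on each of the 5 distinct arrays, with all 8318 tested genes at the top; each point is an array. The medians of all genes lie together near 0, while those of complexes with few genes spread widely, up to 0.16 for complex II and down to -0.20 for the assembly factors, both on adrenal 3.

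The medians of the complexes did not keep an order from array to array. Complex V was the highest group on adrenal 1 at 0.11, complex II on adrenal 3 at 0.16, complex III on lymph 1 at 0.065 and the complex I accessory subunits on lymph 2 at 0.053. The median lay above 0 on all 5 arrays for complex III, from 0.0023 to 0.070, and for the complex I accessory subunits, from 0.0032 to 0.053, and for none of the other groups. The median of complex IV was 0.0096 and 0.12 in adrenal and -0.0026 and -0.036 in lymph. In the average of the 5 arrays it was -0.033, but 0.0080 without adrenal 1, 0.00092 without lymph 1 and -0.018 without lymph 2.

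For lymph minus adrenal, the median of the members was 0.0035, with 35 of 69 above 0, against -0.00021 and 50% for all genes. COX5A had the largest difference of the members tested, -0.40 ± 0.11 (limma SE; adjusted p = 0.934), with both lymph values below both adrenal values. UQCRC2 followed in size, on the other side, at 0.30 ± 0.14. Then came COX7A2L at -0.25 ± 0.10, NDUFA4 at -0.23 ± 0.11 and NDUFB7 at -0.22 ± 0.10 (limma adjusted p = 0.934 for each of these 4). In complex IV, 2 of 10 genes had a difference above 0 and the median was -0.089. Both lymph arrays lay below both adrenal arrays for 13 members (18.8%), against 17% of all genes, and above them for 5 (7.25%), against 16.3%.

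**Figure D3:**
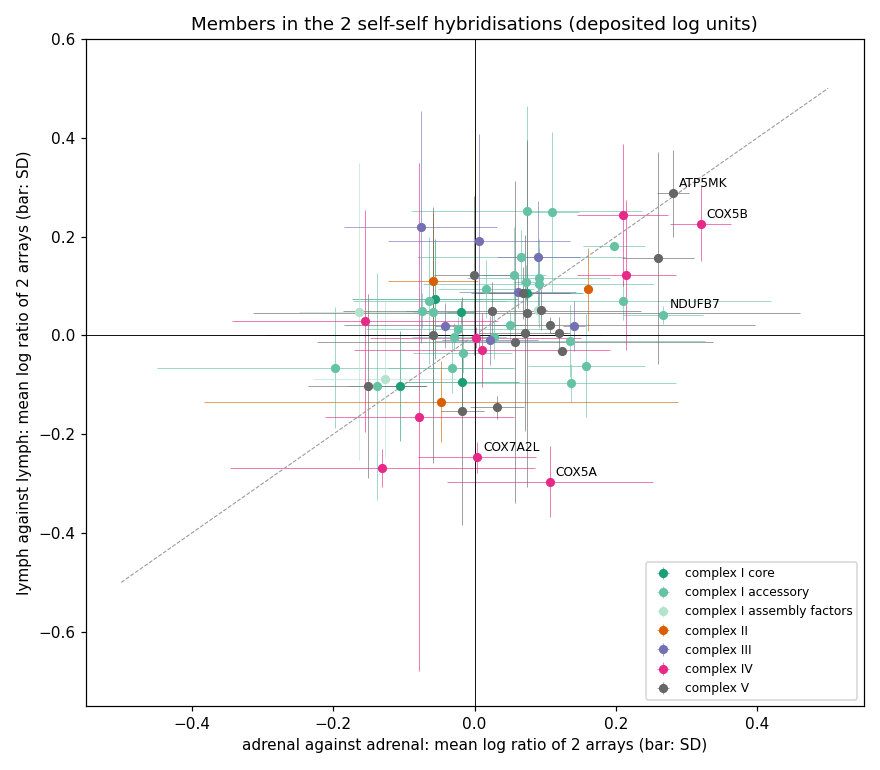
Mean log ratio of the 2 lymph arrays (vertical axis) against that of the 2 adrenal arrays (horizontal axis) for the 69 tested members, in deposited log units; bars are SDs of 2 arrays, colours are complexes and the dashed line marks equal means. ATP5MK and COX5B lie above 0 on both axes, and COX5A and COX7A2L lie below 0 on the lymph axis only.

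Across the arrays, 7 members (10.1%) lay above 0 on all 5, against 7.01% of all genes, and 0 lay below 0 on all 5, against 4.02%. The 5 with the largest averages were ATP5IF1, NDUFA4L2, NDUFB7, UQCR10 and NDUFB10. On the 4 tissue arrays alone, a count made after the values were seen, 19 members (27.5%) lay above 0, against 11.3%, and 1 (1.45%) below, against 7.87%. The 19 came from every complex, with 7 accessory genes and 1 core gene and 1 assembly factor of complex I, 1 gene of complex II, 2 of complex III, 3 of complex IV and 4 of complex V. Over the 69 genes the correlation between 2 arrays was above 0 in 8 of 10 pairs, from -0.216 to 0.322 with a median of 0.186, against -0.0019 to 0.177 and a median of 0.080 over all genes. The pairs below 0 were those of the shared array with adrenal 3 and with lymph 1. These correlations are across genes, which are not independent replicates, and the arrays share the same spotted cDNAs.

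Different features of the same gene agreed poorly. Of the members, 15 had 2 to 4 features. CYC1, which codes for cytochrome c1, had 1 feature at 0.24, 0.26, 0.18, 0.12 and 0.029 and another at 0.019, 0.040, -0.073, -0.16 and 0.051. NDUFS8 had 1 feature above 0 on every array, from 0.024 to 0.29, and another at -0.19, 0.17, -0.060, 0.074 and -0.11. The features of NDUFAF1 stood at -0.37 and -0.026 on adrenal 3 and at -0.15 and 0.19 on lymph 2. The gene means above rest on such features, and 56 members had 1 feature only. Noise between spots and a mismatch between feature numbers and the platform annotation cannot be told apart in these data, so the gene name of every value given here is that of the annotation and was not tested.

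In the average of the 5 arrays, the first 2 features by number lay on the same side of 0 in 12 of 15 members. Over the 3167 genes with at least 2 features this was so for 49.9%, and the correlation between the first 2 features was 0.0047. On single arrays it ranged from -0.018 to 0.0064 over all such genes, and between 7 and 10 of the 15 members agreed in side. The median absolute difference between features of a gene, averaged over the arrays, was 0.124 for the members and 0.153 for all genes. ATP5F1A was the 1 member whose features lay on the same side on all 5 arrays, and in ATP5F1C the 4 features were divided on every array.

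**Figure D4:**
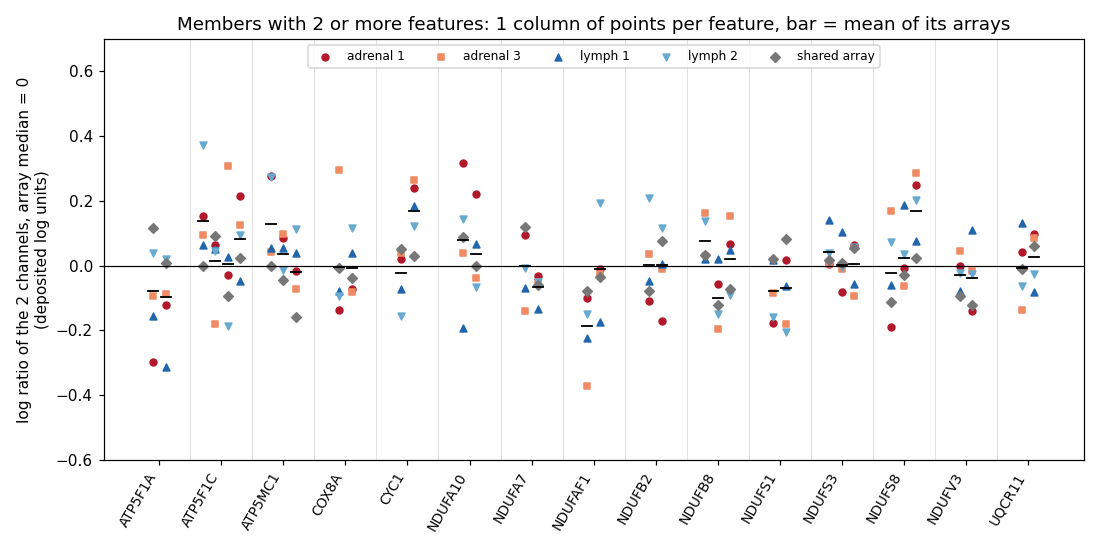
Log ratio (vertical axis, deposited log units) of every feature of the 15 members with at least 2 features; each column of points is a feature, points are the 5 arrays and the bar is their mean. In CYC1 and NDUFS8 the features of a gene stand apart, while both features of ATP5F1A have means below 0.

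Other genes of mitochondrial and energy metabolism gave medians in the average of the 5 arrays on either side of 0. The 9 tested citric acid cycle genes had a median of -0.0059, with 4 above 0, the 8 carriers and channels 0.014 with 4 above, and the 17 assembly factors outside the rule 0.0075 with 10 above. The 6 regulators of mitochondrial biogenesis had a median of -0.013 with 2 above 0, and the 14 glycolytic genes 0.052 with 9 above. None of these genes was called by limma in any of the 4 tests. Of all genes, 7.08% had an unadjusted limma p under 0.05 above 0 in the average, and 2.73% below. At that p the first 3 lists had 0 genes, the regulators 1 and glycolysis 2, all 3 of them above 0. Chosen after their values were seen, TFB2M, a mitochondrial transcription factor and the 1 regulator, stood at 0.26, 0.31, 0.16, 0.22 and 0.035, and LDHA, a subunit of lactate dehydrogenase, at -0.11, -0.10, 0.37, 0.20 and -0.082, with both lymph values above both adrenal values. The corresponding value of the 69 members was 0.024 (0.012 without lymph 1 and 0.037 without the shared array), with 46 above 0 (66.7%, against 53.2% of all genes). Of the markers of other cells, the 5 adrenal cortex genes had a median of -0.037, the 5 chromaffin cell genes 0.086, the 9 lymphocyte genes -0.012, the 7 muscle genes 0.0082 and the 4 adipose genes -0.0035. HBB, the 1 red blood cell gene tested, stood at -0.039. None of the markers was called by limma, and at an unadjusted p under 0.05 in the average there were 1 chromaffin cell gene, 1 lymphocyte gene and 2 muscle genes, all above 0. The part of other cells in the members' values was not tested.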

How the data were processed

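The deposited table gives 1 value per feature and array. From its values these are log ratios of the 2 channels, and the scanner, background correction, normalisation and logarithm base are not given in the sources used here. Gene symbols came from GEO's platform annotation. The gene numbers of 91 of the 92 member features are in the RefSeq table of ARS-UCD2.0. That table served to update names, and no symbol needed it. The members and all lists were chosen with earlier results of these data known.

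Each array was centred on its median, features with a value on all 4 tissue arrays were kept, and features of a gene were averaged. A linear model was fitted in R 4.3.3 with limma 3.58.1 (two-sided, moderated by eBayes) over all 8318 genes with 1 coefficient per tissue on 4 arrays, or 1 coefficient on 5 arrays for the average, with Benjamini-Hochberg adjustment at 0.05. The procedure was tested on simulated data, where the smallest shift tried, larger than most member values, was not recovered in the adrenal test or the difference and was recovered only in part in the average (lymph was not simulated), so the absence of calls does not show that members stayed at 0. SE is limma's moderated standard error. The number of arrays limits the precision. Complexes were assigned by symbol.

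Named members were the 2 highest and 2 lowest averages of each group, up to 5 per direction on 1 side of 0 on all arrays, the 3 smallest p per tissue test and difference, the 3 largest single values, the 3 largest disagreements between features, and the isoform sets. Other members named were chosen after their values were seen, except ATP5MF and ATP5PB, which were not tested. The alternatives changed the centring, the scaling, the treatment of empty cells, of features per gene and of the identical columns, the spread estimate or the choice of structural subunits, blocked on the replicate number, or left out an array. Tables and plots were made in Python 3.11.15 with numpy 2.4.6, pandas 2.3.3 and matplotlib 3.10.9.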

Additional observations from a re-analysis of the deposited data

Results flagged for a closer look

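Among 46 values examined for a single array standing apart from the other 4, 3 did so, and chance gives about 1 in 20. The median of complex II stood at 0.160 on adrenal 3, where SDHC was 0.19 and SDHB 0.16. The median of complex IV stood at 0.123 on adrenal 3. ATP5F1B, the catalytic beta subunit of ATP synthase, stood at -0.317 on lymph 1.

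The medians of a pair of groups lay on opposite sides of 0 in the tissues on every tissue array, and neither difference was tested. For complex IV the mean of the lymph medians minus that of the adrenal medians was -0.0856. For the complex I assembly factors, with 3 genes, it was 0.155.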

How the results depend on the processing

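The count of called members was 0 in all 4 comparisons under every alternative run, leaving aside tissue fits with 1 array in a tissue. Among all genes it was 0 as well, apart from 1 of 8396 genes in adrenal with no filter on empty cells. The number of members at an unadjusted limma p under 0.05 was 8 of 69 in adrenal, against 612 of 8318 genes. It was 5 of 71 with all 6 columns, against 551 of 8395 genes. The replicate block on those columns gave 4 of 71, against 477 of 8395. With the shared array placed in adrenal it was 4 of 69, against 463 of 8343. In lymph it was 9 of 69, against 670 of 8318 genes. The replicate block gave 4 of 71, against 519 of 8395, and the shared array in lymph 5 of 70, against 441 of 8356. For the difference it was 2 of 69, against 404 of 8318 genes. Single features gave 1 of 90, against 575 of 12454, and a robust trended spread 1 of 69, against 410 of 8318. All 6 columns gave 1 of 71, against 156 of 8395, and the replicate block 1 of 71, against 236 of 8395. With the shared array in lymph it was 4 of 70, against 427 of 8356. For both tissues and the difference, counts with an array left out are not listed, since such a fit leaves 1 array in a tissue. The counts listed for these tests therefore do not show that they are stable when an array is left out. For the average the number was 13 of 69, against 816 of 8318 genes. It was 6 of 69 without adrenal 1, against 568 of 8320, and 9 of 69 without adrenal 3, against 722 of 8341. Without lymph 1 it was 10 of 70, against 757 of 8357, and without lymph 2 it was 8 of 69, against 663 of 8318. Leaving out the shared array gave 11 of 69, against 842 of 8318.

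The members' median in adrenal, 0.032, was 0.0504 with the median of a gene's features and 0.0197 with all 6 columns, the replicate block, or the shared array in adrenal (0.0251 to 0.0401 with each array left out). In lymph, 0.042 became 0.0294 for structural subunits only, 0.0318 on single features, 0.0261 with all 6 columns or the replicate block, 0.0240 with the shared array in lymph, and 0.0237 to 0.0419 with each array left out. For the difference, 0.0035 became -0.0164 with the shared array in lymph and ranged from -0.0170 to 0.00819 with each array left out. The average's median of 0.024 ranged from 0.0120 to 0.0369. Causes were not tested.

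The average of COX7A1 became -0.000175 without centring and -0.00947 without the shared array. With each array left out it ranged from -0.0270 to 0.0369, that of ATP5MC2 from -0.00665 to 0.0635, COX5A from -0.139 to 0.000131, COX6C from -0.127 to 0.0546, COX8A from -0.0341 to 0.0187, SDHA from -0.00780 to 0.0702, UQCR11 from -0.00566 to 0.0231, UQCRC1 from -0.0221 to 0.00363 and UQCRC2 from -0.0296 to 0.105. The other 618 values of named genes kept their sign and stayed uncalled. Whether the replicate numbers pair the arrays cannot be judged, since 1 column stands under both tissues: correlations of deviations from the tissue means were 0.0769, -0.178 and -0.144 for numbers 1 to 3. Signal over background was not used here.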
